A study of Bos taurus with 12 samples.

Results

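The genes described here encode the enzymes that remove superoxide, hydrogen peroxide and lipid peroxides, the enzymes that make, recycle and attach glutathione, and the NRF2 pathway that controls many of them. They were chosen by gene symbol from a fixed naming rule, which took the numbered glutathione transferases, microsomal glutathione transferases, glutathione peroxidases, peroxiredoxins and superoxide dismutases, together with a list of single genes such as CAT, TXN, GSR, HMOX1 and KEAP1. The rule found 41 genes among the 9155 gene symbols that stand alone on a probe set of the array. Each gene is represented by its probe set with the highest mean over all arrays. TXNIP and GLRX, also in the rule, had no probe set with that symbol alone.

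The embryos were bovine, and there were 12 pools on Affymetrix arrays, 3 in each of 4 groups. Day 7 in vivo blastocysts came from superovulated donors and Day 7 in vitro blastocysts from IVF, with 25 blastocysts in each pool. Day 13 conceptuses had been transferred as blastocysts of one or the other origin to synchronized recipient heifers, 10 to a recipient, and were pooled by 5 after recovery. Both Day 13 groups had therefore grown in a recipient's uterus after Day 7, and they differed in how the embryo had been made. The labels name the pools biological replicates without saying whether embryos of different pools shared donors, recipients or culture days, so p-values measure the spread between pools. In pooled whole embryos, fewer cells of a type and less RNA per cell cannot be told apart.

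Superoxide dismutases turn superoxide into hydrogen peroxide, which catalase, the peroxiredoxins and the glutathione peroxidases reduce to water. Peroxiredoxins are recharged by thioredoxin and thioredoxin reductase, and glutathione peroxidases draw on glutathione, which glutamate-cysteine ligase and glutathione synthetase make and glutathione reductase recycles. Glutathione transferases couple glutathione to reactive lipids and foreign compounds, and the transcription factor NRF2, held back by KEAP1, raises many of these genes under oxidative or electrophilic stress. In preimplantation embryos this system is known for handling the oxygen and peroxide load of culture and of rising mitochondrial activity.

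Values are log2 probe set intensities. A probe set was taken as above background where it exceeded 3.39, a level set at the 99th percentile of control probe sets with no matching RNA on the array, and a difference was called at an adjusted p under 0.05 over the 24016 probe sets tested. The share of probe sets above background was 41.3% to 42.0% on each array. The poly-A spike-ins, control RNAs added before labelling, averaged 13.4 to 15.0 on the arrays of the other 3 groups and 9.38, 10.61 and 13.06 on Day 13 in vitro replicates 1, 2 and 3. GAPDH probe sets at the 3′ and 5′ ends of the transcript show how complete the labelled copies were, and the 3′ level minus the 5′ level was 5.58 to 5.65 on the Day 7 in vivo arrays and 2.53 to 4.62 on the others, with 2.85 on Day 13 in vivo replicate 2. All 15 measured trophoblast markers were above background on at least 3 arrays, with ELF5, TKDP4, PAG8 and PAG11 above it on Day 13 arrays alone. Of the 12 measured markers of recipient endometrium, 7 were at background on all arrays (ESR1, FOXL2, HOXA10, LTF, OXTR, PAEP and PGR), MSX1 and DES were above it on all 12, OVGP1 on 9, VIM on 3 and MUC1 on 1, and the list summed to 42.5 to 44.2 on the Day 13 in vivo arrays against 35.4 to 39.8 on the others. Of 13 measured blood and immune markers 11 were at background on all arrays, the leucocyte gene PTPRC among them, while the hemoglobin gene HBB read 6.66 to 7.80 on Day 7 in vivo, 5.08 to 8.49 on Day 7 in vitro and 2.23 to 3.42 at Day 13, and ALAS2 exceeded background on 3 arrays, at most 5.19. That list summed to 32.0 to 37.4 on the Day 7 arrays and 29.6 to 31.1 on the Day 13 arrays, and the part of these cells in the day differences was not tested.

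Of the 41 members, 34 exceeded background on at least 3 arrays, and 28 of them did so on all 12. All 6 peroxiredoxins and all 5 NRF2 pathway genes were among the 34, as were 8 of 9 glutathione transferases, 5 of 6 thioredoxin system genes, 4 of 6 glutathione synthesis and glutaredoxin genes, 3 of 5 glutathione peroxidases and 3 of 4 genes of the superoxide dismutase and catalase group. GPX3, GSS, SOD3 and TXNRD2 were not above background on any array. These encode the plasma glutathione peroxidase, glutathione synthetase, the extracellular superoxide dismutase and the mitochondrial thioredoxin reductase. GCLC, GPX7 and GSTT1 exceeded it on 1 array each. Of the 34, GSTM3, NQO1 and SRXN1 exceeded background on Day 13 arrays alone, GSTM3 and GSTA2 on in vivo arrays alone and GCLM on in vitro arrays alone. For these 5 the filter itself bears on the direction of a difference, so counts and medians over the 34 are descriptions. For the day and origin comparisons they are also given without them.

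**Figure D1:**
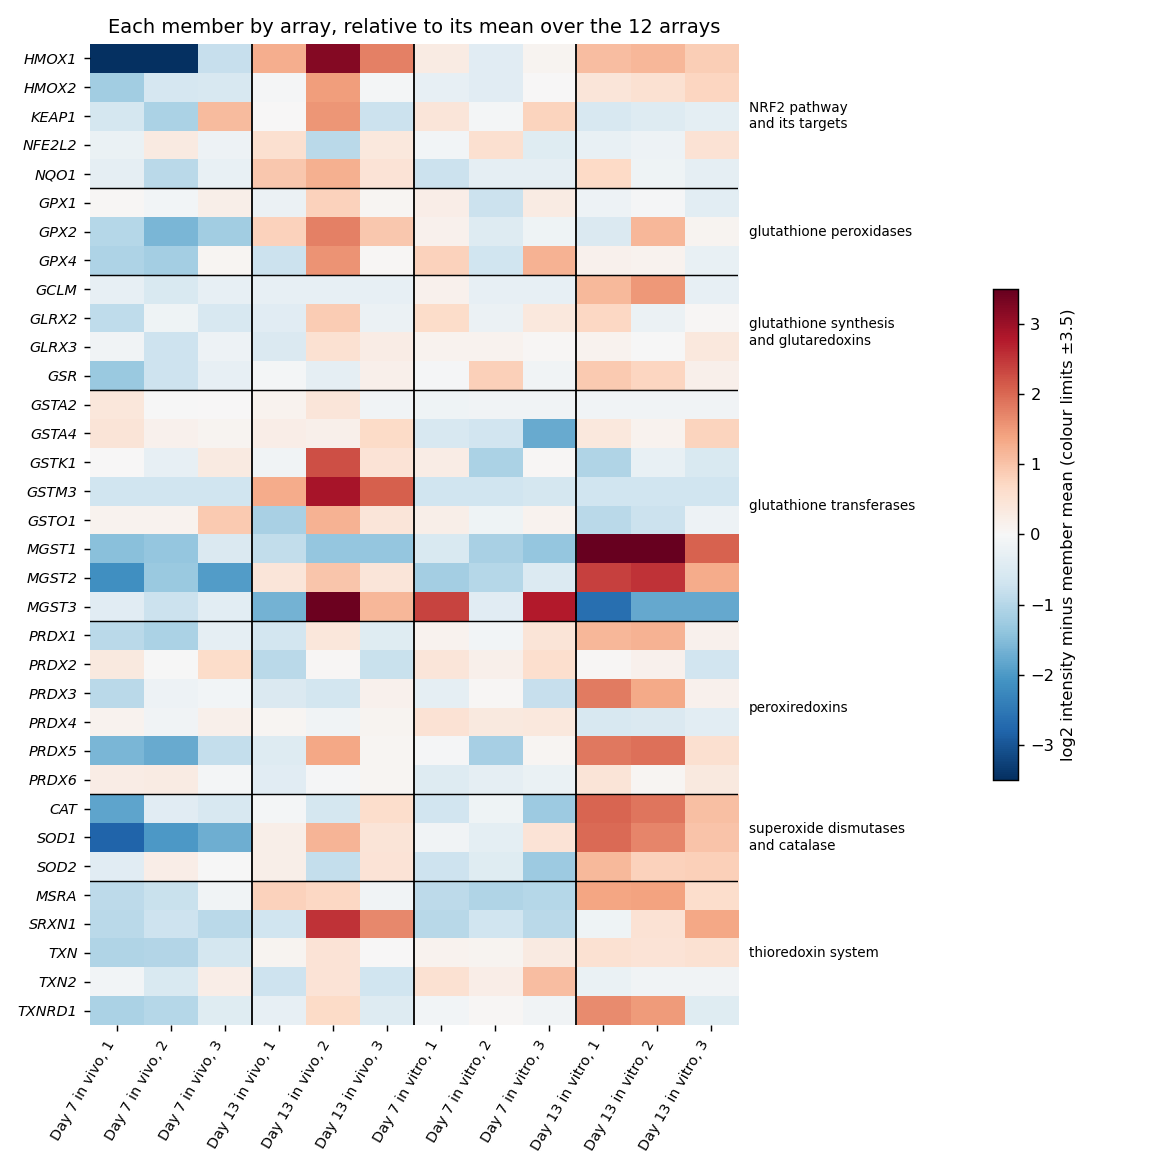
Each row is 1 of the 34 members above background on at least 3 arrays and each column 1 array, and colour gives the log2 intensity minus the member's mean over the 12 arrays (colours saturate at 3.5 either side). MGST1 stands out on the 3 Day 13 in vitro arrays, GSTM3 on the 3 Day 13 in vivo arrays, HMOX1 is lowest on Day 7 in vivo replicates 1 and 2, and MGST3 differs widely between replicates.

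The first question was how these genes changed from the blastocyst to the Day 13 conceptus in embryos made in vivo. SOD1, TXN, HMOX1, GPX2, MGST2 and GSTM3 were called as higher, and no member was called as lower. The 6 calls were 14.6% of the 41 members, beside 3.79% of the 24016 probe sets tested (1.7% higher and 2.09% lower), and 17.6% of the 34 members above background, beside 8.23% of the 10589 probe sets above background. At an unadjusted p under 0.05 there were 12 of the 41 members, beside 14% of all 24016 probe sets, of which 11653 were at background on all arrays. Over the 34 members the median difference was 0.66, against -0.02 over all probe sets above background. It was 0.64 without the 5 members named above, 0.32 without Day 13 in vivo replicate 2, 0.24 with arrays centred on ribosomal protein genes and 0.16 with the GAPDH difference as a covariate. In 10 of the 34 (29.4%) every Day 13 array lay above every Day 7 array and in 0 below, where 30.6% of the probe sets above background did not overlap, 13.4% above and 17.2% below. GSTM3, NQO1 and SRXN1 are among the 10. Without the 5 members named above 7 were left, and 5 of the 6 calls. With the GAPDH covariate, of the 6 GSTM3 stayed called (adjusted p = 0.0284), the others rose by 0.90 to 4.16 with adjusted p of 0.0578 to 0.175, and PRDX2 became called as lower at -1.67 (adjusted p = 0.0084).

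The second question was the same change in embryos made in vitro. MGST1, MGST2, CAT, MSRA, SOD2, GSTA4 and PRDX6 rose and PRDX4 fell, 8 of the 41 members (19.5%) beside 7.51% of all probe sets tested (3.55% higher and 3.96% lower), and 23.5% of the 34 beside 16.6% of the probe sets above background. At an unadjusted p under 0.05 there were 13 of the 41 members, beside 19.2% of all probe sets, those at background included. The median difference over the 34 was 0.47 against -0.02 over all probe sets above background. It was 0.40 without the same 5 members, 0.71 with arrays centred on ribosomal protein genes, 0.20 without both Day 13 in vitro replicates 1 and 2, and 0.17 in the fit adjusted for the spike-ins. The arrays of the days did not overlap in 21 of the 34 (61.8%, with 15 higher and 6 lower at Day 13), where 44.4% of the probe sets above background did not (21.6% higher and 22.8% lower). NQO1 and SRXN1 are among the 15. Without the same 5 members 19 were left (13 higher and 6 lower), and all 8 calls. Leaving out Day 7 in vitro replicate 1 or replicate 3 gave 5 calls, with 3.8% and 4.17% of all probe sets called. There were 4 calls without Day 13 in vitro replicate 1 or replicate 2 (4.0% and 4.03% of all probe sets) and 11 without Day 13 in vitro replicate 3 (12.1%). Without both Day 13 in vitro replicates 1 and 2, the arrays with the lowest spike-ins, MGST1 (3.05, adjusted p = 0.02) and PRDX4 (-0.78, adjusted p = 0.0375) stayed called. When the spike-in mean entered the fit as a covariate 0 members were called, and all 8 kept their direction, with rises of 0.51 to 2.92 and a PRDX4 difference of -0.68.

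**Figure D2:**
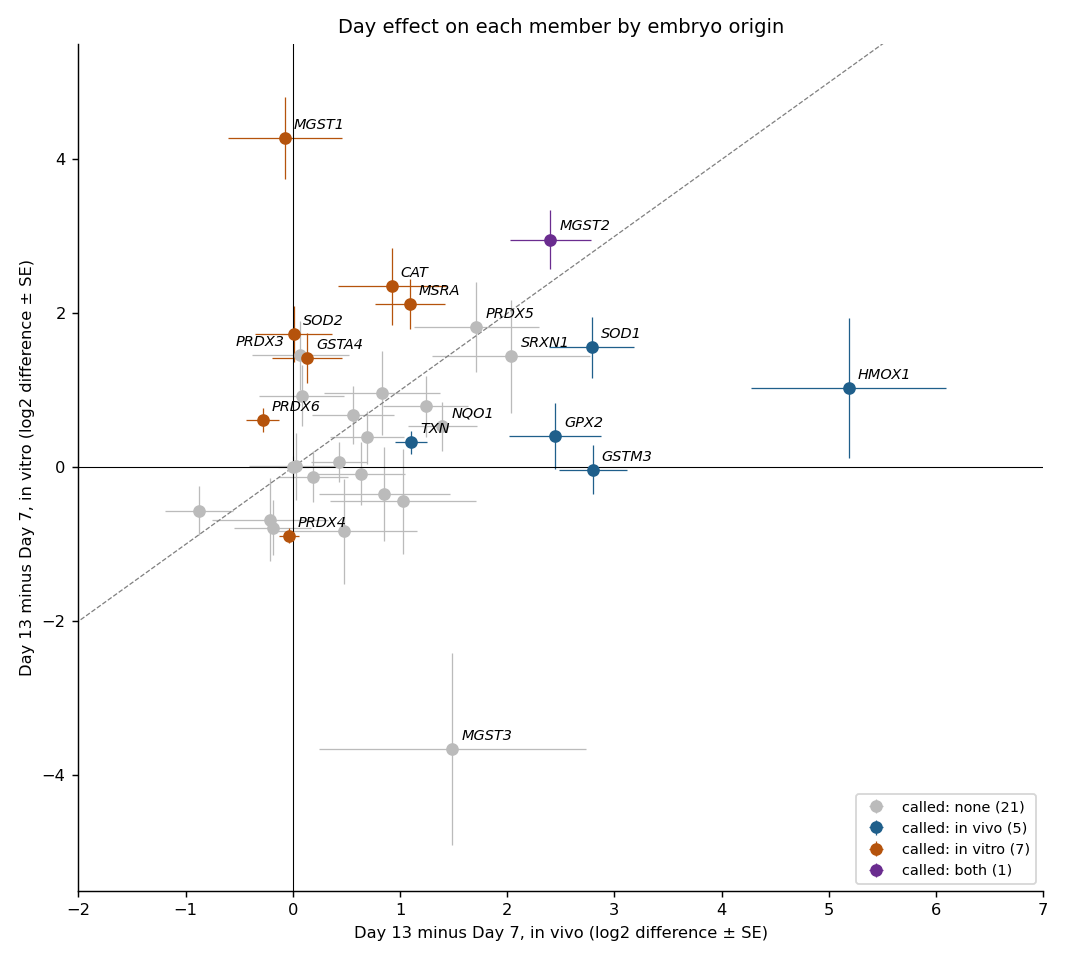
Each point is 1 of the 34 members above background, placed by its log2 difference between Day 13 and Day 7 in vivo (x axis) and in vitro (y axis), with bars of 1 SE, and the dashed line marks equal differences. MGST2 alone was called in both, 5 members were called in vivo alone, 7 in vitro alone and 21 in neither, and GSTM3, NQO1 and SRXN1 are placed by fitted differences from Day 7 arrays at background.

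Of the 12 members called in one of the day comparisons alone, the difference between the comparisons was itself called for GSTM3 and PRDX4. These 2 were 4.88% of the 41 members, beside 0.4% of all probe sets tested (0.146% higher and 0.254% lower), and 5.88% of the 34, beside 0.831% of the probe sets above background. For the other 10 members it is not shown that the day effect differed with origin. Neither call of a difference survived leaving out each array in turn: without Day 13 in vitro replicate 3 the count of members was 4 (and 4.51% of all probe sets), without Day 7 in vivo replicate 3 or Day 13 in vivo replicate 2 it was 2, without Day 13 in vivo replicate 1 it was 1, and without each of the other 8 arrays it was 0.

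The members were then described by role, beginning with the superoxide dismutases and catalase. SOD1, the copper-zinc enzyme of the cytosol, read 8.46, 9.25 and 9.55 on the Day 7 in vivo arrays, 11.47, 12.44 and 11.72 on the Day 13 in vivo arrays, 11.13, 10.92 and 11.73 on the Day 7 in vitro arrays and 13.23, 12.97 and 12.26 on the Day 13 in vitro arrays. The Day 7 in vivo arrays were the lowest and overlapped with no other group. SOD1 rose by 2.79 ± 0.40 in vivo (log2 difference ± SE, 6.91-fold, adjusted p = 0.00684), and this held without any single array. In vitro the difference was 1.56 ± 0.40 (adjusted p = 0.0524), which passed the threshold without Day 13 in vitro replicate 3 (1.84, adjusted p = 0.0274). At Day 7 the in vitro arrays lay 2.17 ± 0.40 above those made in vivo, again without overlap, at an adjusted p of 0.112.

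SOD2, the manganese enzyme of mitochondria, read 11.37, 11.99 and 11.77 on the Day 7 in vivo arrays, 11.97, 10.92 and 12.25 on Day 13 in vivo, 11.04, 11.34 and 10.51 on Day 7 in vitro and 12.91, 12.58 and 12.59 on Day 13 in vitro. The Day 13 in vitro arrays were above those of the other 3 groups and the Day 7 in vitro arrays below the Day 7 in vivo ones, while the in vivo days overlapped. CAT, which encodes catalase of the peroxisome, read 8.16, 9.61 and 9.45 on Day 7 in vivo, 9.96, 9.41 and 10.62 on Day 13 in vivo, 9.35, 9.87 and 8.75 on Day 7 in vitro and 12.05, 11.90 and 11.08 on Day 13 in vitro. Its Day 13 in vitro arrays too were above those of the other groups. In vitro SOD2 rose by 1.73 ± 0.36 (3.32-fold, adjusted p = 0.0228) and CAT by 2.35 ± 0.50 (5.11-fold, adjusted p = 0.0258). In vivo the differences were 0.01 ± 0.36 and 0.92 ± 0.50, not called, and the difference between the day effects was 1.72 ± 0.51 for SOD2 (adjusted p = 0.265) and 1.43 ± 0.71 for CAT (adjusted p = 0.555). Both calls were lost without Day 7 in vitro replicate 1 or 3 and without Day 13 in vitro replicate 1 or 2, with differences of 1.50 to 1.79 and adjusted p of 0.0694 to 0.0908 for SOD2, and 2.07 to 2.37 and 0.0860 to 0.102 for CAT.

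Among the peroxiredoxins, PRDX4, the peroxidase of the endoplasmic reticulum, had the tightest replicates. It read 11.79, 11.56 and 11.85 on Day 7 in vivo, 11.75, 11.56 and 11.78 on Day 13 in vivo, 12.18, 12.01 and 12.04 on Day 7 in vitro and 11.11, 11.17 and 11.30 on Day 13 in vitro. The in vivo days overlapped, the Day 7 in vitro arrays were above both and the Day 13 in vitro arrays below both. PRDX4 fell by 0.89 ± 0.10 in vitro (1.85-fold, adjusted p = 0.00121), which held without any single array, and differed by -0.04 ± 0.10 in vivo. The difference between the day effects was -0.85 ± 0.13 (adjusted p = 0.0488) and was lost without any of 9 of the 12 arrays (differences of -0.88 to -0.76, adjusted p = 0.0543 to 0.125), all except Day 7 in vivo replicate 3, Day 13 in vivo replicate 2 and Day 13 in vitro replicate 3. With each array centred on its ribosomal protein genes the fall in vitro was -0.65 (adjusted p = 0.126) and the difference between the day effects -0.18 (adjusted p = 0.651). At Day 13 PRDX4 was 0.50 ± 0.10 below the in vivo arrays, without overlap and just outside the threshold (adjusted p = 0.0506); without Day 13 in vivo replicate 2 it was called at -0.57 (adjusted p = 0.0407), and without Day 13 in vitro replicate 3 at -0.56 (adjusted p = 0.0182).

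PRDX6, a peroxidase that reduces phospholipid hydroperoxides, read 11.56, 11.60 and 11.25 on Day 7 in vivo, 10.92, 11.27 and 11.37 on Day 13 in vivo, 10.86, 10.98 and 11.08 on Day 7 in vitro and 11.77, 11.36 and 11.64 on Day 13 in vitro. Its rise in vitro of 0.62 ± 0.15 (1.53-fold, adjusted p = 0.0482) was lost without any 1 of the 6 in vitro arrays (0.53 to 0.73, adjusted p = 0.0512 to 0.176). The gene's other 2 probe sets above background gave 0.06 ± 0.58 and -0.92 ± 0.57 for the same comparison, and the mean over its probe sets was -0.08. PRDX6 is therefore a call of 1 probe set that the others do not share.

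PRDX3, the mitochondrial peroxiredoxin, was measured by 2 probe sets. The brighter one read 10.12, 10.49 and 9.64 on Day 7 in vitro and 12.25, 11.77 and 10.60 on Day 13 in vitro, a difference of 1.45 ± 0.45 (adjusted p = 0.106), and it read 9.51 to 10.59 over both in vivo groups. The other probe set rose in vitro by 2.20 ± 0.43 (adjusted p = 0.0182), and without Day 13 in vitro replicate 3 the brighter one was called too (1.92, adjusted p = 0.0153). PRDX5, found in mitochondria, peroxisomes and cytosol, differed by 1.71 ± 0.59 in vivo and 1.82 ± 0.59 in vitro, without overlap in either case and without a call (adjusted p = 0.207 and 0.116). The cytosolic PRDX1 and PRDX2 differed between the days in vivo by 0.56 ± 0.38 and -0.88 ± 0.31. Neither was called in any of the 5 comparisons. After quantile normalization PRDX2 was called as lower in vivo (-1.02, adjusted p = 0.0431). It was also called with arrays centred on ribosomal protein genes (-1.30, adjusted p = 0.0054), as with the GAPDH covariate.

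In the thioredoxin system, TXN, the cytosolic thioredoxin, read 13.09, 13.11 and 13.53 on Day 7 in vivo, 14.25, 14.64 and 14.16 on Day 13 in vivo, 14.28, 14.25 and 14.47 on Day 7 in vitro and 14.68, 14.62 and 14.68 on Day 13 in vitro. The Day 7 in vivo arrays were below all the others. TXN rose by 1.11 ± 0.15 in vivo (2.15-fold, adjusted p = 0.00543), which held without any single array, and its difference in vitro was 0.33 ± 0.15 (adjusted p = 0.29). MSRA, which repairs oxidized methionine using thioredoxin, lay close to background at Day 7: it read 3.58, 3.72 and 4.39 on Day 7 in vivo, 5.33, 5.25 and 4.39 on Day 13 in vivo, 3.59, 3.45 and 3.51 on Day 7 in vitro and 5.90, 5.91 and 5.12 on Day 13 in vitro. The days overlapped in vivo and did not overlap in vitro. MSRA rose in vitro by 2.12 ± 0.33 (4.36-fold, adjusted p = 0.00684), which held without any single array, and differed by 1.09 ± 0.33 in vivo (adjusted p = 0.142).

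SRXN1, sulfiredoxin, which reactivates overoxidized peroxiredoxins, was at background on all Day 7 arrays (2.96 to 3.23). On Day 13 it read 3.21, 6.45 and 5.60 in vivo and 3.78, 4.44 and 5.27 in vitro, so that 5 of 6 Day 13 arrays exceeded background. Set against background, the Day 13 mean was at least 3.24-fold higher in vivo and at least 2.15-fold higher in vitro, and neither difference was called (adjusted p = 0.234 and 0.363). In vivo the bound was 6.21-fold without Day 13 replicate 1, where the difference was called (adjusted p = 0.0107), and 2.02-fold without replicate 2 (adjusted p = 0.405). TXNRD1, the cytosolic thioredoxin reductase, differed by 0.83 ± 0.54 and 0.97 ± 0.54, with Day 13 in vitro replicate 3 at 9.12 and replicates 1 and 2 at 11.21 and 11.04. The mitochondrial thioredoxin TXN2 was lower on every Day 13 than every Day 7 in vitro array, by 0.78 ± 0.36 (adjusted p = 0.288).

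**Figure D3:**
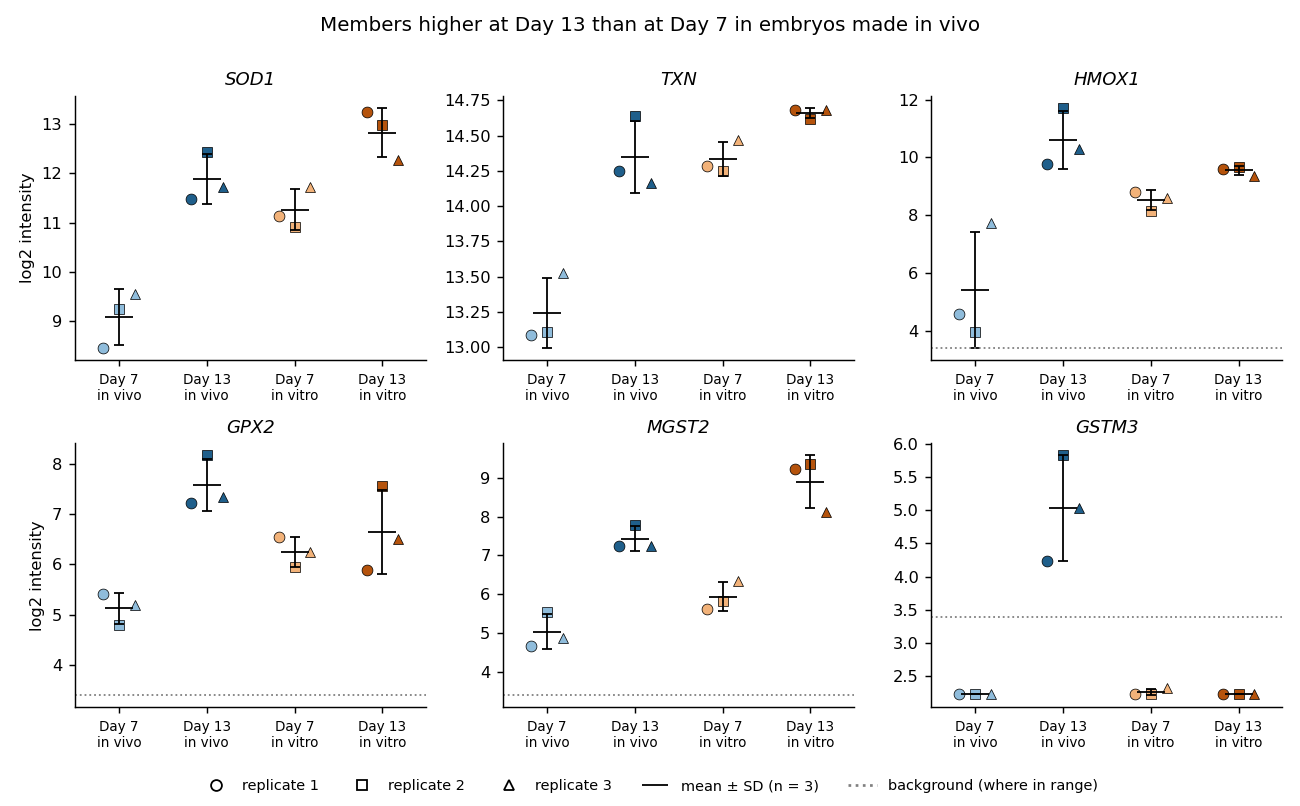
Log2 intensity of the 6 members called as higher at Day 13 in embryos made in vivo, on each of the 12 arrays, with the mean and SD of each group of 3 and the background as a dotted line where it falls in range. GSTM3 exceeds background on the 3 Day 13 in vivo arrays. In SOD1, TXN, HMOX1, GPX2 and MGST2 the Day 7 in vivo arrays lie below those of every other group.

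Of the glutathione peroxidases, GPX2, the form known from the gut epithelium, read 5.40, 4.79 and 5.18 on Day 7 in vivo, 7.22, 8.16 and 7.34 on Day 13 in vivo, 6.55, 5.94 and 6.24 on Day 7 in vitro and 5.89, 7.55 and 6.50 on Day 13 in vitro. The in vivo days were separate and the in vitro days overlapped. GPX2 rose by 2.45 ± 0.43 in vivo (5.46-fold, adjusted p = 0.0173), a call that leaving out Day 7 in vivo replicate 2 ended (2.28, adjusted p = 0.0619), and differed by 0.40 ± 0.43 in vitro. The difference between the day effects was -2.05 ± 0.61 (adjusted p = 0.272). GPX1, the main cytosolic form, differed between the days by 0.19 ± 0.33 in vivo and -0.12 ± 0.33 in vitro, and its 95% intervals reached from -0.87 to 0.94. These values are from the brighter of its 2 probe sets, on which the origins overlapped at Day 13. The other, also above background on all 12 arrays, read 7.19, 8.74 and 7.81 on Day 13 in vivo. On Day 13 in vitro it was lower, at 5.80, 3.73 and 7.19, so the 2 probe sets did not give the same picture. GPX4, which protects membrane lipids, spread widely among replicates, with 13.42 on Day 13 in vivo replicate 2 against 11.10 and 11.88 on the others, and no difference was called. GPX7 exceeded background on that same array (5.17) and lay at or below 2.29 on the other 11.

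Glutathione synthesis gave no call in any comparison. GCLM, the modifier subunit of glutamate-cysteine ligase, exceeded background on Day 7 in vitro replicate 1 (3.69) and on Day 13 in vitro replicates 1 and 2 (4.68 and 5.04), and GCLC, the catalytic subunit, on Day 13 in vitro replicate 1 (5.86) with 2.42 or less on the other 11 arrays. The arrays at Day 13 with GCLM above background were those with the lowest spike-ins; their part in it was not tested. GSR, glutathione reductase, was higher on every Day 7 in vitro than every Day 7 in vivo array, by 0.99 ± 0.34 (adjusted p = 0.622). The glutaredoxins GLRX2 and GLRX3, which use glutathione to reduce protein disulfides, differed by 0.64 ± 0.41 and 0.43 ± 0.26 between the days in vivo and by -0.08 ± 0.41 and 0.07 ± 0.26 in vitro, with no call.

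Of the 9 glutathione transferases, MGST1, MGST2, GSTM3 and GSTA4 were called in at least 1 comparison. MGST1, a membrane-bound transferase of the endoplasmic reticulum and outer mitochondrial membrane, read 5.73, 5.85 and 6.71 on Day 7 in vivo, 6.34, 5.86 and 5.86 on Day 13 in vivo, 6.68, 6.08 and 5.86 on Day 7 in vitro and 11.44, 10.77 and 9.26 on Day 13 in vitro. The first 3 groups overlapped with one another, and every Day 13 in vitro array was above all of them. MGST1 rose by 4.28 ± 0.53 in vitro (19.5-fold, adjusted p = 0.00242) and differed by -0.07 ± 0.53 in vivo. At Day 13 it was 4.47 ± 0.53 higher in conceptuses of in vitro origin (22.1-fold, adjusted p = 0.00807), and both calls held without any single array. The difference between the day effects was 4.36 ± 0.75 and missed the threshold (adjusted p = 0.0638); without Day 13 in vitro replicate 3 it was 4.97 (adjusted p = 0.00199). Within Day 13 in vitro, MGST1 was highest on replicate 1, where the spike-ins were lowest (9.38), and lowest on replicate 3, where they were highest (13.06). When that mean entered the fit as a covariate, both MGST1 differences were 2.92 (adjusted p = 0.112 in vitro and 0.324 at Day 13). The trophoblast markers summed to 148 to 161 on the Day 13 in vitro arrays, 135 to 142 on the Day 13 in vivo arrays and 99.6 to 111 on the Day 7 arrays. PAG11, TFAP2A, IFNT2, ELF5, ASCL2 and SSLP1 were higher on every Day 13 in vitro than every Day 13 in vivo array. TEAD4 was lower, at 5.34 to 6.01 against 6.84 to 7.97, and the rest, KRT8 and KRT18 among them, overlapped. The part of these markers' cells in the MGST1 result was not tested.

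MGST2, a related transferase that also makes leukotriene C4, read 4.67, 5.54 and 4.88 on Day 7 in vivo, 7.25, 7.80 and 7.25 on Day 13 in vivo, 5.63, 5.83 and 6.35 on Day 7 in vitro and 9.23, 9.35 and 8.11 on Day 13 in vitro. No groups overlapped between the days or between the origins. MGST2 rose by 2.40 ± 0.38 in vivo (5.29-fold, adjusted p = 0.011) and by 2.96 ± 0.38 in vitro (7.78-fold, adjusted p = 0.00281), and both held without any single array. The difference between these day effects, 0.56 ± 0.54, had a 95% interval from -0.67 to 1.78. At Day 13 MGST2 was 1.46 ± 0.38 higher in vitro (adjusted p = 0.115; 1.86 and 0.0119 without Day 13 in vitro replicate 3).

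GSTM3, a soluble transferase of the mu class, read 2.23 on each Day 7 in vivo array, 4.23, 5.82 and 5.03 on Day 13 in vivo, 2.23, 2.23 and 2.32 on Day 7 in vitro and 2.23 on each Day 13 in vitro array. It exceeded background on the 3 Day 13 in vivo arrays and on none of the other 9. GSTM3 was thus at least 3.11-fold higher at Day 13 than at Day 7 in vivo, a bound set against background. The same bound, 3.11-fold, held for in vivo over in vitro at Day 13. Each bound was 2.37-fold without Day 13 in vivo replicate 2 and 4.1-fold without replicate 1. The highest background control, at 4.59, lay above GSTM3 on replicate 1 (4.23). In the fit to the deposited values the adjusted p was 0.00228 and 0.0062, and both calls held without any single array. That fit shares 1 spread over all groups, and the SD was 0 at Day 7 in vivo and Day 13 in vitro against 0.80 at Day 13 in vivo. With only the arrays of the groups compared, the adjusted p was 0.109 and 0.255. The fit to the deposited values gave a difference between the day effects of -2.83 ± 0.45 (adjusted p = 0.0488), which was lost without any of 9 of the 12 arrays, all except Day 13 in vivo replicates 1 and 2 and Day 13 in vitro replicate 3 (-2.84 to -2.80, adjusted p = 0.077 to 0.124). The hypoblast markers summed to 96.0 to 101 on the Day 13 in vivo arrays against 78.1 to 87.9 on the others. In that list APOE, APOA1, APOA2 and LAMB1 were highest there, while GATA6 read 11.3 to 12.8 against 13.1 to 14.1 at Day 7. FN1 was lower there than on every Day 7 in vivo array. The 3 measured inner cell mass and epiblast markers summed to 20.2 to 23.4 there against 14.7 to 20.1 on the others. CRIPTO read 11.1 to 11.7 there and at most 10.3 on the others. POU5F1 read 6.72 to 9.43 there, 8.76 to 11.22 at Day 7 and 4.51 to 5.30 on Day 13 in vitro. SOX2 was at background there. The 9 measured cumulus, granulosa and oviduct markers summed to 35.7 to 37.2 there against 28.7 to 33.9 on the others. Of them AMH, CYP19A1, FSHR, INHA and PTX3 were at background on all arrays. STAR read 8.91 to 9.62 there and 7.57 to 9.01 on Day 13 in vitro. TNFAIP6 read 4.76 to 5.34 there and at most 3.68 on the others. HAS2 read 7.39 to 8.07 there and 8.32 to 8.62 on Day 7 in vivo. VIM, a gene of mesenchymal cells in the list of endometrial markers, read 7.19, 7.68 and 3.67 on the Day 13 in vivo arrays. Like GSTM3, it exceeded background on those arrays alone. MSX1 of that list read 11.53, 10.11 and 10.59 there and 8.68 to 11.42 on the other arrays, MUC1 exceeded background on replicate 3 (3.71), and the 7 markers named above as at background were so on these arrays too. The part of other cell types in the GSTM3 result was not tested.

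MGST3, the third microsomal member, was called in no comparison. It read 4.86, 4.49 and 4.88 on Day 7 in vivo, 3.61, 8.69 and 6.41 on Day 13 in vivo, 7.62, 4.86 and 8.04 on Day 7 in vitro and 2.62, 3.46 and 3.46 on Day 13 in vitro. The Day 13 in vitro arrays were the lowest, while the SD of the replicates reached 2.55 at Day 13 in vivo and 1.73 among blastocysts made in vitro. The difference in vitro was -3.66 ± 1.25 (adjusted p = 0.139) and that at Day 13 -3.05 ± 1.25 (adjusted p = 0.273). On the arrays where MGST3 was highest, Day 13 in vivo replicate 2 and Day 7 in vitro replicates 1 and 3, the GAPDH difference was 2.85, 3.40 and 3.47. It was lower still, at 2.53 and 2.61, on Day 13 in vitro replicates 1 and 2, where MGST3 was among its lowest, and it was 4.57 on Day 13 in vivo replicate 3, where MGST3 read 6.41. The part of RNA completeness in the MGST3 values was not tested.

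GSTA4, which detoxifies the lipid peroxidation product hydroxynonenal, read 8.70, 8.40 and 8.34 on Day 7 in vivo, 8.48, 8.43 and 8.91 on Day 13 in vivo, 7.69, 7.58 and 6.47 on Day 7 in vitro and 8.61, 8.37 and 9.02 on Day 13 in vitro. The Day 7 in vitro arrays were below those of every other group, and the other 3 groups overlapped. GSTA4 rose in vitro by 1.42 ± 0.33 (2.68-fold, adjusted p = 0.0343), a call that ended when Day 13 in vitro replicate 1 (1.45, adjusted p = 0.102), replicate 2 (1.57, adjusted p = 0.0665) or replicate 3 (1.24, adjusted p = 0.0709) was left out. At Day 7 it was 1.23 ± 0.33 lower in vitro, not called (adjusted p = 0.371). GSTO1, an omega-class enzyme, and GSTK1, of mitochondria and peroxisomes, were not called; each was highest on Day 13 in vivo replicate 2, at 10.35 and 9.94. GSTA2 stayed within 3.33 to 3.90, next to background, on all arrays.

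**Figure D4:**
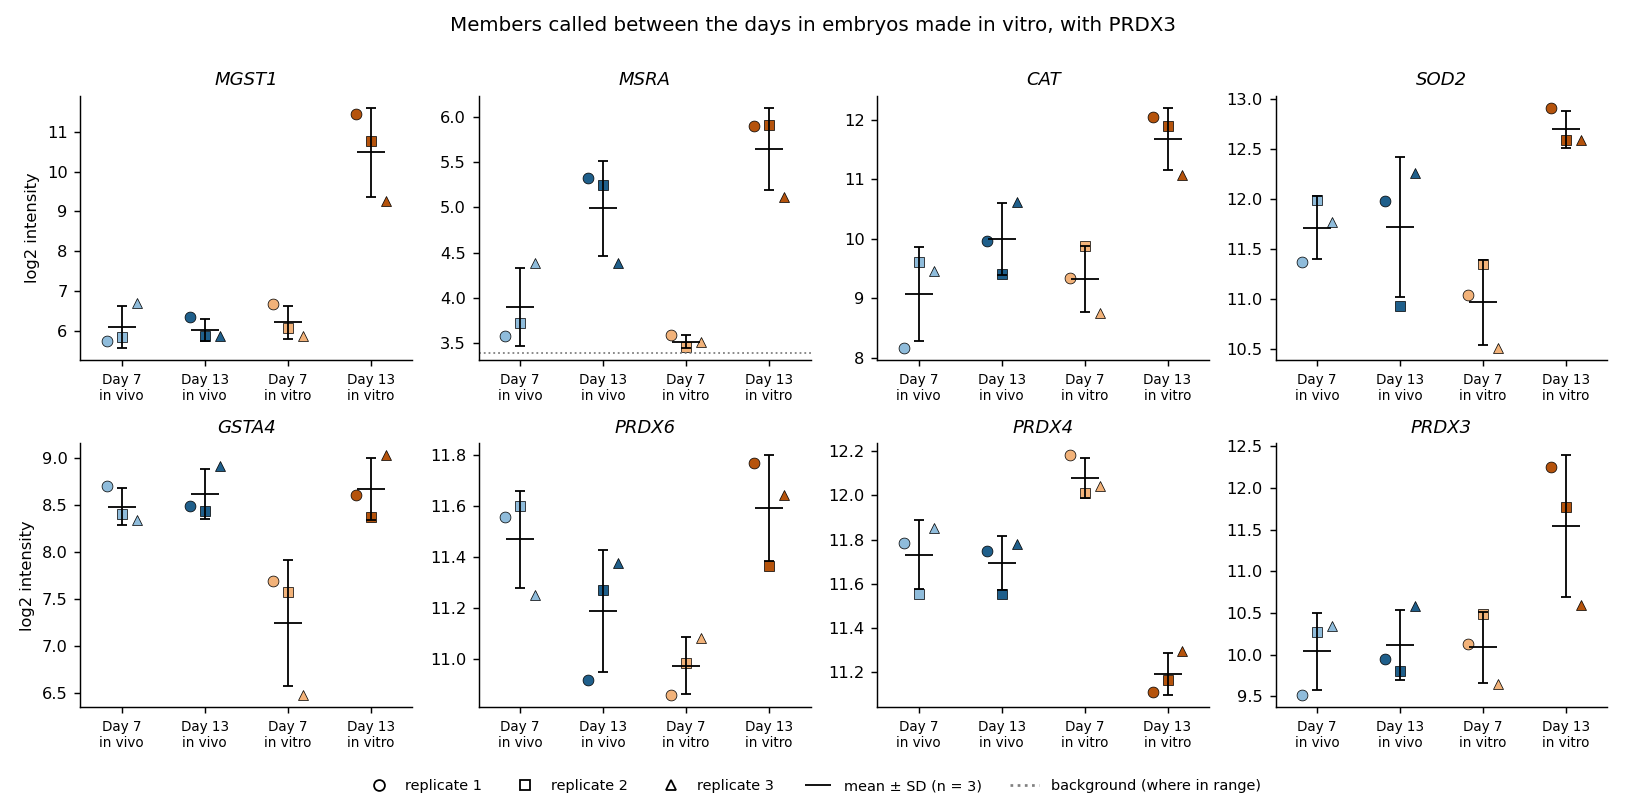
Log2 intensity of the members called between the days in embryos made in vitro (MGST2 is in the plot of in vivo rises) and of PRDX3, on each of the 12 arrays, with the mean and SD of each group of 3 and the background as a dotted line where it falls in range. MGST1, CAT and SOD2 are highest on the 3 Day 13 in vitro arrays, PRDX4 is lowest there, and GSTA4 is lowest on the 3 Day 7 in vitro arrays.

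In the NRF2 pathway, NFE2L2, which encodes NRF2 itself, had group means of 10.91, 10.93, 10.95 and 10.97, and the 95% intervals of its day and origin differences reached from -0.98 to 1.04. KEAP1, its inhibitor, was not called by any of its probe sets above background. HMOX1, the heme-degrading enzyme that is among the genes most inducible by NRF2 and by heme, read 4.56, 3.96 and 7.71 on Day 7 in vivo, 9.78, 11.72 and 10.28 on Day 13 in vivo, 8.80, 8.13 and 8.61 on Day 7 in vitro and 9.60, 9.67 and 9.37 on Day 13 in vitro. The Day 7 in vivo arrays were below those of the other 3 groups, and within them replicate 3 stood well above the other pair (SD 2.01, n = 3). HMOX1 rose by 5.18 ± 0.91 in vivo (36.4-fold, adjusted p = 0.0174), which was the largest difference among the calls in vivo. Leaving out Day 7 in vivo replicate 1 (4.76, adjusted p = 0.0635) or replicate 2 (4.46, adjusted p = 0.0508) ended the call. In vitro HMOX1 differed by 1.04 ± 0.91, and at Day 7 it was 3.10 ± 0.91 higher in vitro (adjusted p = 0.469), which passed the threshold without Day 7 in vivo replicate 3 (4.25, adjusted p = 0.0254).

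NQO1, a quinone reductase and standard NRF2 target, was at background on all Day 7 arrays (2.65 to 3.33) and read 4.54, 4.83 and 4.08 on Day 13 in vivo and 4.28, 3.43 and 3.29 on Day 13 in vitro. In vivo the Day 13 mean was at least 2.13-fold higher, set against background, and the difference was just outside the threshold (adjusted p = 0.0539). The constitutive heme oxygenase HMOX2 differed by 1.24 ± 0.40 in vivo and 0.80 ± 0.40 in vitro, without overlap in either and without a call (adjusted p = 0.173 and 0.345).

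The third question was whether blastocysts made in vitro differed at Day 7 from those made in vivo. TXN was the 1 member called, 1.09 ± 0.15 higher in vitro (2.13-fold, adjusted p = 0.0404). The call is 2.44% of the 41 members, beside 0.208% of the probe sets tested (0.129% higher and 0.0791% lower). It is 2.94% of the 34, beside 0.378% of the probe sets above background. This call and the rise of TXN in vivo rest on the same Day 7 in vivo arrays. It was lost without Day 7 in vivo replicate 1 or 2 or any Day 7 in vitro replicate (1.01 to 1.13, adjusted p = 0.0553 to 0.124), and without Day 7 in vivo replicate 3 a second member, HMOX1, was called. The arrays of the origins did not overlap in 16 of the 34 members, 47.1%, where 18.6% of the probe sets above background did not (11.6% higher and 7.06% lower in vitro). In 12 of the 16 the in vitro arrays were higher (HMOX1, SOD1, GPX2, TXN, GSR, PRDX1, MGST2, TXNRD1, TXN2, HMOX2, GLRX3 and PRDX4), and in GSTA4, SOD2, PRDX6 and GSTA2 they were lower. PRDX6 was lower in vitro on its chosen probe set alone. Of its other 2 above background, 1 read 9.32 to 10.31 in vivo and 10.26 to 11.61 in vitro. The other read 8.66 to 10.17 in vivo and 10.07 to 10.94 in vitro. GSTA2 is among the 5 members that the filter bears on, and 15 were left without them, with the 1 call. At an unadjusted p under 0.05 there were 10 of the 41 members, beside 6.67% of all probe sets, those at background included. The median over the 34 was 0.30, against 0.06 over the probe sets above background, and 0.57 without the 5 members that passed the filter on 1 day or 1 origin alone. It was 0.48 with array weights, 0.12 with arrays centred on their median, -0.20 with arrays centred on ribosomal protein genes, which moves the median of all probe sets by -0.49, and -0.44 when the GAPDH difference was a covariate.

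The fourth question was whether the origins differed at Day 13, after growth in recipients. MGST1 was higher in conceptuses of in vitro origin and GSTM3 lower, with the values given above. These 2 were 4.88% of the 41 members, beside 1.2% of the probe sets tested (0.645% higher and 0.554% lower). They were 5.88% of the 34, beside 2.57% of the probe sets above background. GSTM3 is among the 5 members that passed the filter on 1 day or 1 origin alone, and 1 call was left without them. There were 7 calls without Day 13 in vitro replicate 3, where 8.57% of all probe sets were called, and 3 without Day 13 in vivo replicate 2, where 1.49% were. Without both Day 13 in vitro replicates 1 and 2 MGST1 was the 1 member called, beside 1.91% of all probe sets. In 10 of the 34 (29.4%, with 5 higher and 5 lower in vitro) the origins did not overlap, where 29.8% of the probe sets above background did not (18.3% higher and 11.5% lower). Those higher in vitro were MGST1, CAT, MGST2, PRDX3 and SOD2, and those lower were MGST3, GSTM3, GSTK1, HMOX1 and PRDX4. Without the same 5 members 9 were left (5 higher and 4 lower). At an unadjusted p under 0.05 there were 14 of the 41 members, beside 16% of all probe sets, those at background included. The median over the 34 was 0.11 against 0.08 over the probe sets above background, and 0.16 without the same 5 members. Over the other settings it lay between -0.18, after quantile normalization, and 0.45, without Day 13 in vivo replicate 2.

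**Figure D5:**
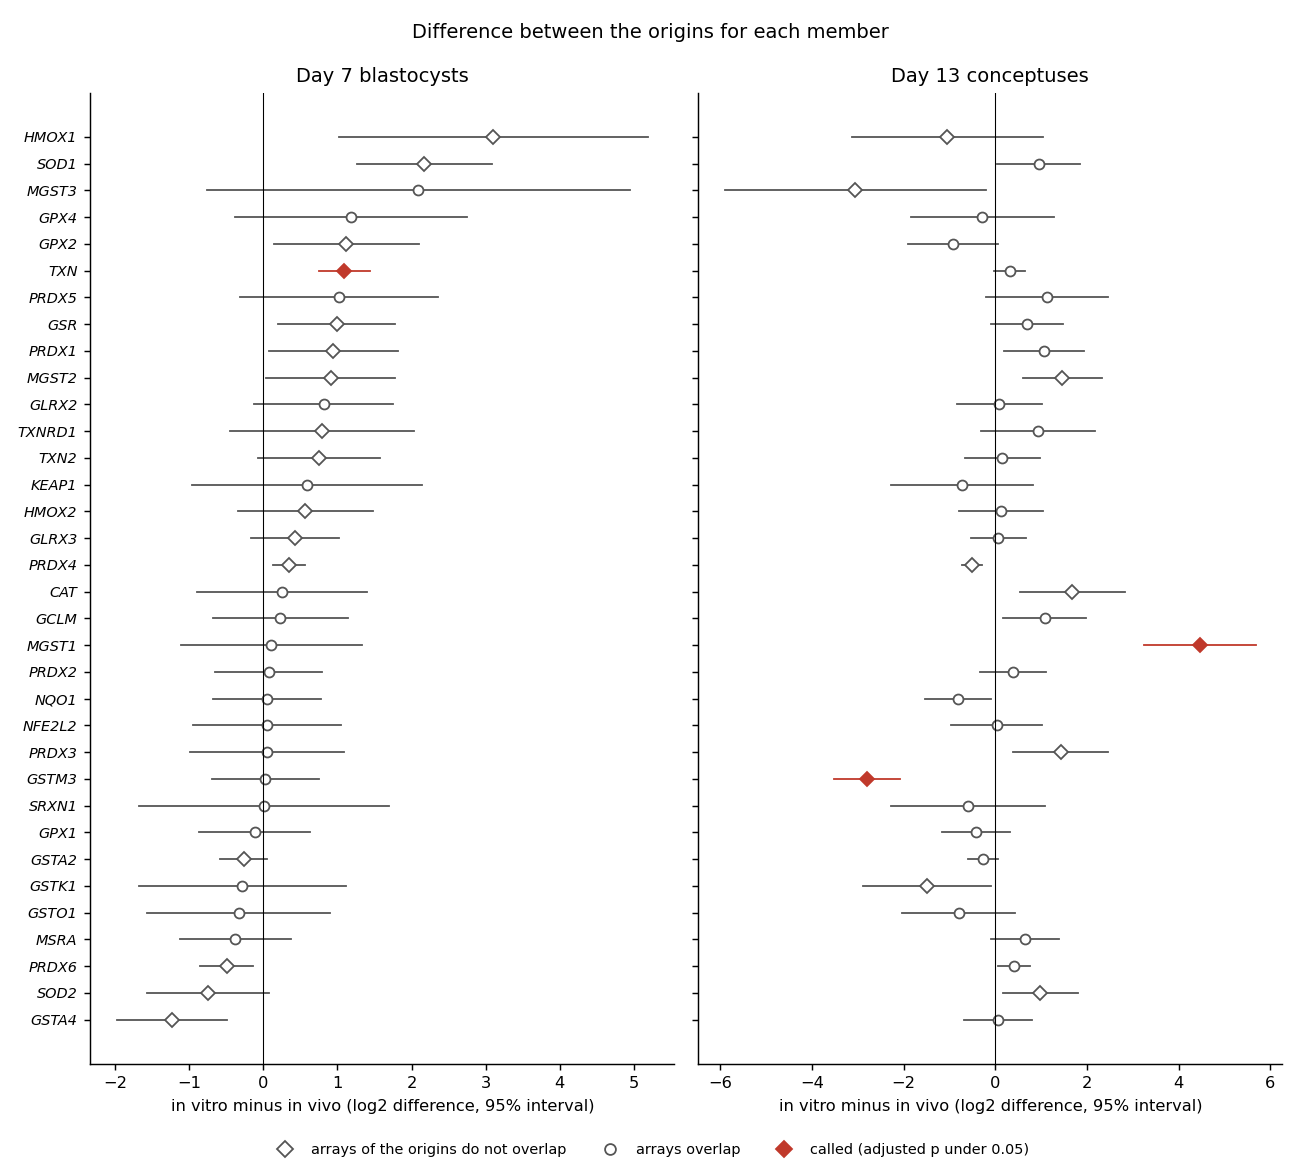
Log2 difference between embryos of in vitro and in vivo origin for the 34 members above background, at Day 7 (left) and Day 13 (right), with 95% intervals; diamonds mark members whose arrays do not overlap between the origins and filled symbols those called. TXN at Day 7 and MGST1 and GSTM3 at Day 13 were called, and HMOX1 lies at 3.10 at Day 7 and at -1.05 at Day 13.

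Genes that supply or surround the system were counted in the same fit. In the NADPH supply, which feeds both reductases, 16 genes were measured. In embryos made in vivo the cytosolic malic enzyme gene ME1 was at least 51.7-fold higher on Day 13 (adjusted p = 0.000104) and rose by 4.21 ± 0.40 in vitro (adjusted p = 0.000627), and ME2, its mitochondrial relative, rose in vitro (adjusted p = 0.00361). IDH1, the cytosolic NADP-dependent isocitrate dehydrogenase, fell by 0.93 ± 0.18 in vivo and 1.02 ± 0.18 in vitro, and IDH2 fell by 0.94 ± 0.19 in vivo. Of 20 measured genes of glutathione supply and breakdown, of which 3 are members, the cysteine and alanine carrier SLC1A4 was above background on the Day 7 in vitro arrays alone (mean 4.52) and so at least 2.19-fold higher there than at Day 7 in vivo (adjusted p = 0.000376) or Day 13 in vitro, while ETHE1, which oxidizes glutathione persulfide, fell by 4.70 ± 0.83 in vitro (adjusted p = 0.0121). IDH1 stands in this list too, and no other gene of it was called between the days.

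Of 23 measured NRF2 partners and further targets, AKR1B1, aldose reductase, rose by 3.94 ± 0.86 in vivo, the transporter ABCG2 by 2.51 ± 0.49 and UGDH, which makes UDP-glucuronate, by 2.97 ± 0.59 in vitro. SQSTM1, which binds KEAP1, fell by 1.90 ± 0.26 and NFE2L1 by 1.59 ± 0.32 in vitro. Among 17 measured oxidant sources, XDH, xanthine dehydrogenase, dropped to background by Day 13, at least 27.5-fold in vivo and at least 26.1-fold in embryos made in vitro (adjusted p = 0.0107 and 0.00587). It read 5.76, 9.64 and 9.12 on Day 7 in vivo, where the bound was 63.4-fold without replicate 1 and 16.5-fold without replicate 2. AOX1, aldehyde oxidase, rose by 2.59 ± 0.51 in vivo and the peroxisomal oxidase ACOX3 fell by 2.64 ± 0.50 in vitro. Of 36 other redox and metal-handling genes, SELENOK, TXNDC5 and QSOX1, proteins of the secretory pathway, rose in both origins, QSOX1 by 4.93 ± 0.55 in vivo and 3.56 ± 0.55 in vitro. TXNDC12 rose in vitro, SEPHS2, which makes the selenium donor for selenoproteins, fell by 2.24 ± 0.35 in vivo, and PRNP, the prion protein gene, fell by 3.25 ± 0.66 in vitro. No gene of these 5 lists was called between the origins at Day 13, and at Day 7 SLC1A4 was the 1 called.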

How the data were processed

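RNA from 12 pools of bovine embryos was measured on Affymetrix arrays after labelling 75 ng of total RNA with a protocol of 2 cycles, per the labels' protocols. The deposited table holds log2 probe set values that the authors normalized; RMA, GCRMA and limma appear in the submitters' processing notes, with no version and no statement of which made the values. The genome build of the array's design is not given in the sources used here, so no coordinates are given.

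Tests ran over 24016 probe sets, after 112 control probe sets had been removed. Symbols came from the platform annotation: 13292 probe sets carried 1 symbol, 86 several and 10638 none, and probe sets with several were not used. The 41 members had 57 probe sets, and all 41 gene IDs carry the same symbol in RefSeq. Probe sets of multigene families such as the glutathione transferases may also bind close copies, which was not tested. Members and gene lists were chosen with earlier results of these data known. Named genes were the members called in any comparison, with all 12 values, and the others by range or difference; a list's genes were named where called.

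The log2 values of all 12 arrays were fitted by 4 group means with limma 3.58.1 (lmFit, eBayes without trend) in R 4.3.3, with Benjamini-Hochberg adjustment over 24016 probe sets, two-sided tests and a threshold of 0.05 (8 residual and 0.379 prior degrees of freedom). It was tested on simulated data. Errors beside differences are standard errors. Background was the 99th percentile of 46 unmatched control probe sets, a level chosen after the data were seen, and "at least" folds are set against it. The number of pools, 3 a group, limits the precision; read depth does not apply to arrays. After group means were removed, same-numbered arrays of different groups correlated above 0.1 in 3 of 18 pairs, so the numbers were not used as pairs. Alternatives were other normalizations, filters, variance models, covariates, a replicate block, leaving out arrays and averaging a gene's probe sets.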

Additional observations from a re-analysis of the deposited data

Results flagged for a closer look

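GSTM3 and PRDX4 stood out because a test of the difference in day effect between the origins called them. Each call was lost on leaving out any 1 of 9 of the 12 arrays. Of 10 other settings, 5 ended the GSTM3 call and 7 the PRDX4 call. The in vitro minus in vivo difference of the day effects was -2.83 for GSTM3 and -0.85 for PRDX4 on the log2 scale, each at an adjusted p of 0.0488 (limma). GSTM3 was above background on 3 of 3 Day 13 in vivo arrays and on 0 of the other 9. PRDX4 was lower at Day 13 on 3 of 3 in vitro arrays and overlapped between the days in vivo.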

How the results depend on the processing

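Of the 19 calls of members over the 5 comparisons, 10 held without any 1 array and 9 were lost without at least 1. None of the 19 held in every other setting. PRDX6 reversed in vitro: the mean over its probe sets was -0.0812 against 0.62. Left out 1 array at a time, the called members numbered 4 to 7 in vivo, 4 to 11 in vitro, 0 to 2 between the origins at Day 7, 2 to 7 at Day 13 and 0 to 4 for the difference of the day effects. Without both Day 13 in vitro replicates 1 and 2, a setting chosen after seeing the data, they numbered 2 in vitro, 1 at Day 13 and 0 for the difference. With only the arrays of the groups compared, which leaves fewer samples, they numbered 0 in vivo, 2 in vitro, 0 at Day 7 and 0 at Day 13. The spike-in covariate gave 0 in vitro, 0 at Day 7, 0 at Day 13 and 0 for the difference; the GAPDH covariate gave 2 in vivo and 0 at Day 7. A replicate block gave 4 in vitro, 0 at Day 7 and 0 for the difference, with 4 in vivo and 2 at Day 13, and kept 10 of the 19 calls. eBayes with trend and robust variances gave 5 in vitro, 0 at Day 7 and 0 for the difference. Array weights gave 25 in vitro, where 34.3% of all probe sets were called, 2 at Day 7 and 9 at Day 13. At Day 13 centring on ribosomal protein genes gave 4, fitting the probe sets above background alone 4, and centring on the array median 13; the last called 53.5% of all probe sets. Quantile normalization gave 1 for the difference. The cause of these changes was not tested. Centring on ribosomal protein genes moved the median of all probe sets by -0.43 in vivo, 0.24 in vitro, -0.49 at Day 7 and 0.17 at Day 13. With background at the 95th percentile of the controls 2 members were at background on all arrays, and at their highest value 5 were. Members above background on at least 3 arrays numbered 35 and 30 at these levels, against 34.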

Other observations

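Single arrays carried many of the members' extremes. Day 13 in vivo replicate 2 was the highest of its group in 23 of the 34 members above background (67.6%), against 42.1% of the 10589 probe sets above background. Day 7 in vivo replicate 3 was the highest of its group in 22 of the 34 (64.7%), against 36.7%. In the in vitro groups no array was the highest in more than 16 of the 34. GSTT1 read 5.74 on Day 13 in vivo replicate 2, 2.86 and 2.51 on the other arrays of its group and 2.23 on the 9 arrays of the other groups.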
